A study of Mus musculus with 2 samples.

Results

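Mural cells, the contractile cells that wrap blood vessels, were followed here in single-cell RNA-seq of mouse knee joints. They were selected on measured values: a cell was counted as mural when at least 3 of the 6 genes Myh11, Higd1b, Rgs5, Acta2, Gja4 and Lmod1 had a value above 0. Of 6243 cells, 107 met this rule, 64 of 4903 in the control library and 43 of 1340 in the Stat3KO library. Control animals were Stat3fl/fl. Stat3KO animals were Stat3fl/fl and also carried 1 copy of Acan-CreERT2, a tamoxifen-inducible Cre recombinase driven from the aggrecan gene of cartilage cells. Per the study's methods, tamoxifen was given in the first days after birth, knees of female C57BL/6 mice were taken at 1 month, and the knees of 2 to 3 animals were pooled for each genotype. Live cells lacking CD31, Ter119 and CD45, surface markers of endothelial, erythroid and white blood cells, were sorted before capture, so shares of cells describe the sorted suspension. There was 1 library for each genotype, so no difference between genotypes could be tested. Ranges in parentheses after a share of cells are its 95% Clopper-Pearson interval, which covers counting error only.

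Mural cells fall into pericytes, which lie singly within the basement membrane of capillaries and venules, and vascular smooth muscle cells, which form the contractile coat of arteries and larger veins. Pericytes are recognised by Rgs5, a regulator of G protein signalling, and Higd1b, a small mitochondrial protein. Smooth muscle cells are recognised by Myh11, the smooth muscle myosin heavy chain, and Lmod1, a leiomodin that promotes actin filament assembly. Acta2, smooth muscle actin, and Gja4, the gap junction protein connexin 37, occur in both to differing degrees. Many smooth muscle genes are switched on by serum response factor and its partner myocardin, which act through CArG boxes, short elements with 2 C, 6 A or T, and 2 G. The list of smooth muscle genes had promoter windows for 16 of its 21 genes, the rule markers for 4 of 6 and the pericyte list for 12 of 15, each window reaching 250 bases before the annotated start (RefSeq, GRCm38.p6). An exact CArG box, read on both strands, was in 1 smooth muscle window, that of Myl9, the regulatory myosin light chain, and in none of the rule marker or pericyte windows, against 1.81% of all 27025 windows. A form with 1 of the 6 middle bases allowed to be G or C was chosen after the windows were seen. It was present in 11.3% of all windows and in 0 of 12 pericyte windows. It was also in 1 of 16 smooth muscle windows, that of Myl9, and in 1 of 4 rule marker windows, that of Acta2. Both stretches are shown because these genes are among the most widely detected contractile genes of the mural cells. The stretches, 5′ to 3′ on the gene's strand with boxes in capitals, are at chr2:156775273-156775394 (plus strand, upstream of Myl9) and chr19:34255378-34255487 (minus strand, before the RefSeq start of Acta2). The GENCODE gene used for positions elsewhere, chr19:34241090-34255590, starts further upstream and contains the Acta2 stretch.
Myl9: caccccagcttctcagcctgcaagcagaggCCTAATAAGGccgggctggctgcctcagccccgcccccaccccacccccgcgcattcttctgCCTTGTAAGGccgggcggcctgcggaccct
Acta2: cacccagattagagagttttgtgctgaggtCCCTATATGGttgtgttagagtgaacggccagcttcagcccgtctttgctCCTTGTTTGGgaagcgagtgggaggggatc
The first box of Myl9 begins 161 bases before the start and is the exact one, and the second begins 99 bases before it. The boxes of Acta2 begin 84 and 34 bases before the start. These matches describe the letters and are not measured binding sites.

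Values were log2-transformed CPM (counts scaled to a fixed total) in each cell. Estimated UMIs, the molecule counts they imply, were summed over a group of cells to give 1 CPM level per gene. The mural cells held a median of 2222 estimated UMIs in control, from 998 to 17482, and 3933 in Stat3KO, from 831 to 16125. Their median share of mitochondrial counts was 4.04% in control and 5.09% in Stat3KO, and 14 of 64 and 22 of 43 lay above 5%. A globin gene was above 0 in 36 of 64 control mural cells (56.2%) and in 1 of 43 Stat3KO mural cells. In the whole control library 75.7% of cells had a globin value, and 1483 cells met a rule for erythroid cells, against 12 in Stat3KO. No mural cell barcode was shared by the libraries. The Scrublet caller marked 1 control and no Stat3KO mural cell as a doublet, and marked only 2 cells in the whole Stat3KO library. Stat3 itself, at chr11:100885098-100939540 (GRCm38, minus strand), stood at 141 CPM in control mural cells, above 0 in 18 of 64, and at 165 CPM in Stat3KO mural cells, above 0 in 18 of 43. Reads come from the 3′ end of transcripts, and the deleted exons are not given in the sources used here, so this level does not check the deletion.

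Cells with exactly 3 markers, just inside the rule, numbered 22 in control and 14 in Stat3KO, at median depths of 1755 and 3737 UMIs. Those with exactly 2, just outside, numbered 26 and 10, at medians of 3204 and 5432. Nearly all remaining cells had at most 1 marker,. All 6 markers were found together in 3 control and 4 Stat3KO cells. The commonest combination in control was Myh11, Rgs5, Acta2 and Lmod1, in 12 cells. In Stat3KO it was Myh11, Higd1b, Rgs5 and Acta2, in 8 cells.

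Rgs5 was above 0 in 82.8% of control and 79.1% of Stat3KO mural cells, at summed levels of 8868 and 6051 CPM. Its values in single mural cells ranged from 0 to 26826 CPM in control, with a median of 10184, and from 0 to 23588 in Stat3KO, with a median of 2101. Higd1b was above 0 in 31.2% of control cells (20.2 to 44.1%) and 58.1% of Stat3KO cells (42.1 to 73.0%), at 258 and 558 CPM. The 2 intervals share only the range from 42.1 to 44.1%, and such an overlap is not a test. The Stat3KO cells were deeper, as given above, and the part of depth in the difference was not tested. Myh11 was above 0 in 93.8% and 90.7%, at 3554 and 2781 CPM. Lmod1 was above 0 in 59.4% and 53.5%, at 452 and 372 CPM. Acta2 was found in 57 of 64 and 42 of 43 cells, at 4303 and 5353 CPM. Gja4 was found in 26 of 64 and 10 of 43 cells, at 212 and 87.8 CPM. These 6 levels were used to choose the cells and are given as a description. On GRCm38 the genes of the 2 pairs are Rgs5 (chr1:169655501-169695813, plus strand), Higd1b (chr11:102835849-102838040, plus strand), Myh11 (chr16:14194535-14291372, minus strand) and Lmod1 (chr1:135324807-135368065, plus strand).

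**Figure D1:**
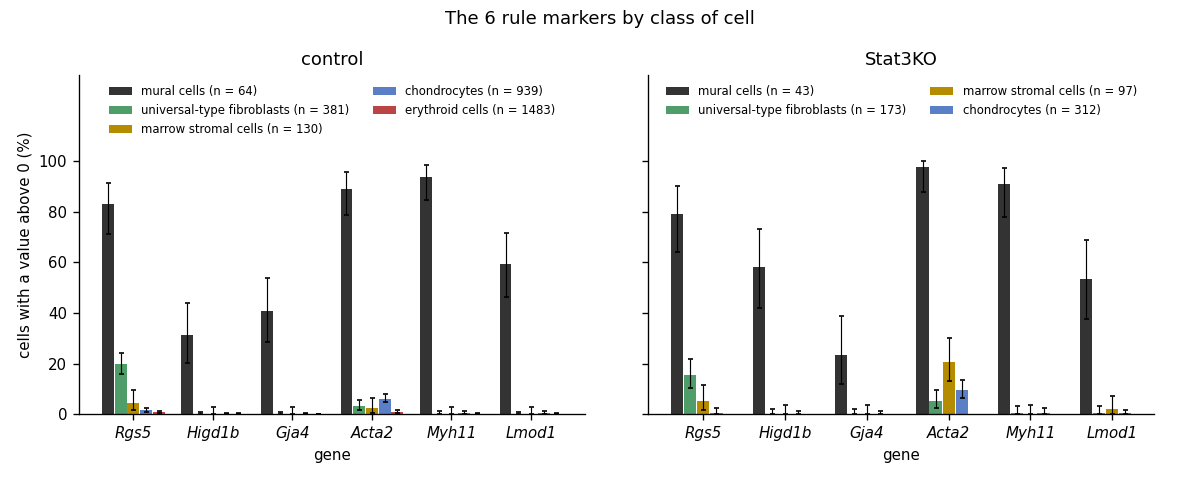
Percent of cells with a value above 0 for each rule marker (vertical axis) in mural cells and 4 other classes of each library; bars are shares and error bars exact 95% binomial intervals. The 12 erythroid cells of Stat3KO are not drawn. Mural bars reach 93.8% for Myh11 in control, while the highest bars outside mural cells are 20.6% for Acta2 in Stat3KO marrow stromal cells and 19.7% for Rgs5 in control fibroblasts.

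The markers differed in how closely they kept to mural cells. Myh11 was above 0 in 6 of 939 control chondrocytes (0.639%), at a median depth of 4899 UMIs, and in 1 of 1483 control erythroid cells, at a median of 6110. Both depths exceed that of the mural cells. Higd1b and Gja4 were at 0 in all fibroblasts and marrow stromal cells of both libraries, where a limit of 3 counts allows shares of cells with a UMI of up to 0.787% in the 381 control fibroblasts and 3.09% in the 97 Stat3KO marrow stromal cells. Rgs5 was above 0 in 19.7% of control and 15.6% of Stat3KO fibroblasts of the Pi16 and Dpp4 type, against 1.60% and 0.641% of chondrocytes. Acta2 was above 0 in 20.6% of Stat3KO and 2.31% of control marrow stromal cells. Chondrocytes showed Acta2 in 6.18% of control and 9.62% of Stat3KO cells, the highest background of the 6 markers in that class.

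Mural cells made up 1.31% of control cells (1.01 to 1.66%) and 3.21% of Stat3KO cells (2.33 to 4.30%). The intervals do not overlap. With cells of the erythroid rule taken out of both libraries the shares were 1.87% (1.44 to 2.39%) and 3.24% (2.35 to 4.34%), and these intervals overlap. Among cells without any globin value they were 2.35% (1.57 to 3.38%) and 3.42% (2.48 to 4.60%). Thinning every cell to 1000 UMIs, which left out 352 control and 206 Stat3KO cells, gave 1.12% and 2.38%. The share was higher in Stat3KO in each of these counts, and the part of the erythroid cells, the depth and the sort in the difference was not tested.

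Outside the rule markers, 1414 genes were above 0 in at least 25% of mural cells of both libraries. Of these, 242 (17.1%) were at least 2-fold higher in mural cells than in all other cells of their own library, in both libraries. A fold here is a ratio of CPM + 1, and cells chosen by their genes are bound to differ from the rest, so these genes describe the class. Against universal-type fibroblasts 194 genes (13.7%) passed, and against marrow stromal cells 175 (12.4%).

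The gene with the highest smaller ratio was Olfr558, an odorant receptor gene, at 246 CPM in control and 258 CPM in Stat3KO mural cells and at 0.353 and 0.275 CPM elsewhere. It was above 0 in 48.4% and 48.8% of mural cells. Casq2, a calcium-binding protein of the sarcoplasmic reticulum, stood at 125 and 114 CPM and at 0.171 CPM in other control cells and 0 in other Stat3KO cells. Sncg, a synuclein, stood at 351 and 672 CPM, against 0.877 and 5.35 CPM. The other 17 genes under this rule included contractile and cytoskeletal genes (Tagln, Myl9), Map3k7cl of the smooth muscle list, and adhesion genes (Bcam, Esam). Others were of the nitric oxide and cyclic GMP route that relaxes vessels (Gucy1b1, a subunit of soluble guanylate cyclase, and Mrvi1, a target of its kinase). The 17 genes also held the receptor Notch3, the venous regulator Nr2f2 and the basement membrane collagen Col18a1. Tagln, the actin-binding transgelin, stood at 3353 and 4061 CPM in mural cells, against 18.7 and 84.7 CPM in the rest. Notch3, whose signal maintains mural cells, stood at 579 and 677 CPM, against 6.20 and 13.5 CPM. Its margin was narrower against marrow stromal cells, which held 122 and 84.9 CPM. Cd93, better known from endothelial cells, was also in this set, at 247 and 113 CPM and above 0 in 40.6% and 27.9% of mural cells.

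The list of 15 pericyte genes had 11 that could be compared, and 10 were at least 2-fold higher in mural cells than in other cells in both libraries. Their median smaller log2 ratio was 3.47, against 0.01 over all genes compared. Of 21 smooth muscle genes 15 could be compared and 14 were at least 2-fold higher, with a median of 4.97. In the list of PDGF, Notch and angiopoietin signalling, 6 of 7 passed, led by Notch3. Among 8 transcription regulators 6 passed, including Nr2f2, Ebf1, Epas1 and Tbx2. Against marrow stromal cells, 2 of 7 signalling genes and 3 of 8 transcription regulators passed, where 12.4% of all genes did. Of 6 RGS genes outside the rule 2 could be compared, Rgs4 and Rgs7bp, and both passed, with Rgs4 at 257 and 377 CPM in mural cells against 6.35 and 5.35 CPM. Of 18 genes of basement membrane and vessel matrix, 8 were at least 2-fold higher, such as the collagen IV chains Col4a1 (3506 and 2625 CPM, against 163 and 250 CPM) and Col4a2, and 2, Col1a1 and Col1a2, were at least 2-fold lower in both libraries. Of 16 immediate-early and stress genes 2 passed, and of 2 genes of the gp130 and STAT list none, against 17.1% of all genes.

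Marker genes of other cell types were checked in the mural cells as whole lists. Of 9 endothelial markers, 1 (Cldn5) was at 0 in control mural cells and 6 were at 0 in Stat3KO. The summed level was 228 CPM in control, where 3 cells held 91.2% of it, and 20.5 CPM in Stat3KO. Of 8 leukocyte markers 7 were at 0 in each library, Ptprc among them. The 6 skeletal muscle genes summed to 23.7 and 5.17 CPM, and 6 Schwann cell genes to 81.3 and 5.12 CPM. The 10 fibroblast genes summed to 1044 and 81.2 CPM and the 5 tendon genes to 1069 and 35.5 CPM, and 3 control cells held 95.6% and 88.0% of the control sums. The 7 osteoblast genes summed to 121 and 244 CPM. Marrow stromal genes were widespread, the 7 genes summing to 1564 CPM in control and 2227 CPM in Stat3KO mural cells, against 570.2 and 1897 CPM in non-mural cells, and at least 1 was above 0 in 54 of 64 and 41 of 43 mural cells. Most of these cells had Ebf1, a transcription factor above 0 in 49 and 38 mural cells. The list was as widespread in universal-type fibroblasts, summing to 1008 CPM in control and 1482 CPM in Stat3KO. At least 1 of its genes was above 0 in 349 of 381 and 165 of 173 fibroblasts. The 9 chondrocyte genes summed to 8646 CPM in control mural cells and 198 CPM in Stat3KO mural cells, although all other cells held 16953 and 22997 CPM. The 3 leading control cells held 84.4% of the control sum.

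In all, 9 control and 2 Stat3KO mural cells also met the rule of another class. They were deeper than the rest, with medians of 6856 and 6478 UMIs, and 5 of the 9 control cells carry the authors' own selection mark. Without these cells the chondrocyte sum was 620 CPM in 55 control cells and 183 CPM in 41 Stat3KO cells. The marrow stromal sum was then 1262 and 1191 CPM. Within that list Cxcl12, a chemokine, was held by few cells, 3 cells carrying 96.4% of its control and 97.0% of its Stat3KO mural counts.

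Each mural cell was next described by its pericyte pair (Rgs5 and Higd1b) and its smooth muscle pair (Myh11 and Lmod1). Most mural cells had both. In control 51 of 64 cells (79.7%, 67.8 to 88.7%) and in Stat3KO 32 of 43 cells (74.4%, 58.8 to 86.5%) had at least 1 gene of each pair above 0. Cells with the pericyte pair alone numbered 3 and 4, and cells with the smooth muscle pair alone 10 and 7. All 4 genes were above 0 in 8 and 10 cells. No mural cell lacked both pairs.

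The amounts separated the cells more than the detection did. In control, Rgs5 and Higd1b together made up at least 90% of the 4 genes' UMIs in 22 cells and less than 10% in 12 cells, with 16 cells between 25 and 75%. In Stat3KO these numbers were 13, 12 and 9. Cells were therefore also divided by the pair with the larger summed UMIs, a division taken as the basis for gene levels once the small pure groups had been counted. In control 41 cells leaned to the pericyte pair and 23 to the smooth muscle pair, a pericyte-leaning share of 64.1% (51.1 to 75.7%). In Stat3KO the numbers were 22 and 21, a share of 51.2% (35.5 to 66.7%). The 2 intervals overlap. Depth differed little between the leanings in control, at medians of 2321 and 2121 UMIs, and was 4744 and 3448 in Stat3KO. The division is led by Rgs5 and Myh11, the more abundant gene of each pair, and cells near equality could fall either way.

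**Figure D2:**
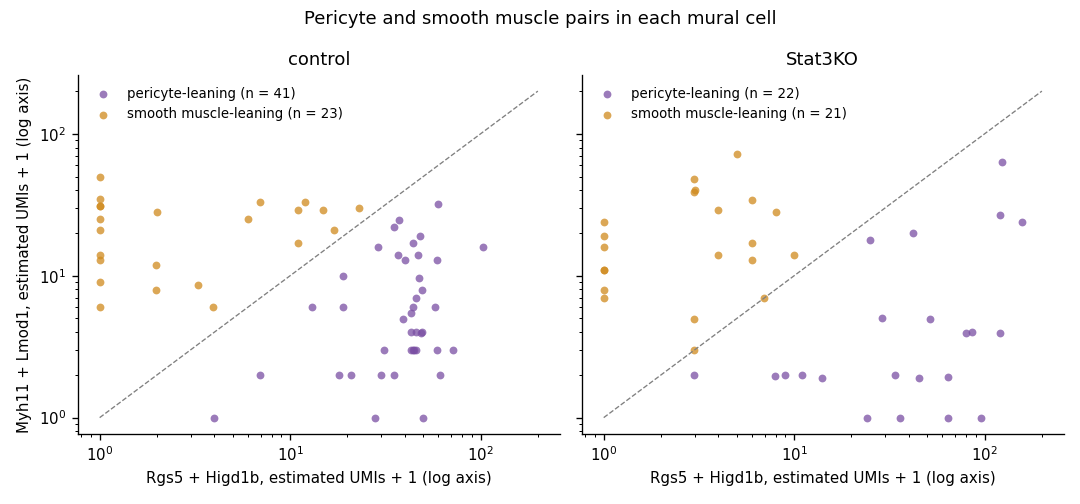
Estimated UMIs of Rgs5 plus Higd1b (horizontal, log axis, 1 added) and of Myh11 plus Lmod1 (vertical, log axis, 1 added) in each mural cell, with the line of equality dashed. Pericyte-leaning cells (41 in control, 22 in Stat3KO) lie below the line and smooth muscle-leaning cells (23 and 21) above it, and 9 or more cells of each library lie in the middle range.

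With the pure groups of 3 against 10 and 4 against 7 cells, 406 of 2267 genes (17.9%) were at least 2-fold higher with the pericyte pair in both libraries and 180 (7.94%) with the smooth muscle pair. With the leanings, 95 of 1750 genes (5.43%) were at least 2-fold higher in pericyte-leaning cells in both libraries and 86 (4.91%) in smooth muscle-leaning cells. Of these, 49 and 41 were called by both divisions. With the leanings but without the cells that met another rule, 125 and 93 of 1599 genes passed. Of those, 65 and 68 were among the 95 and 86. The values below are those of the leanings. The rule chose the cells by 4 of their genes, so the differences are a description.

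Kcnj8 and Abcc9, the pore and the sulfonylurea receptor that together form the ATP-sensitive potassium channel of pericytes, stood out on the pericyte side. Kcnj8, at chr6:142564837-142571614 next to Abcc9, stood at 114 CPM in control and 149 CPM in Stat3KO pericyte-leaning cells and was at 0 in the smooth muscle-leaning cells of both. It was above 0 in 12 of 41 and 9 of 22 pericyte-leaning cells. Abcc9 stood at 318 CPM in pericyte-leaning and 16.3 CPM in smooth muscle-leaning control cells, and at 211 and 12.5 CPM in Stat3KO. Steap4, a metalloreductase, was at 295 CPM against 0 in control and at 343 against 37.6 CPM in Stat3KO. Cygb, the oxygen-binding cytoglobin, was at 360 against 48.5 CPM and at 492 against 25.01 CPM. The surface protein Thy1 stood at 262 against 49.1 CPM and at 421 against 12.5 CPM.

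The remaining named genes of the pericyte side included matrix genes. Col5a3, a collagen V chain, was at 634 against 30.8 CPM in control and 729 against 12.5 CPM in Stat3KO. Mmp14, a membrane-bound metalloprotease that cleaves collagen, was at 329 against 46.8 CPM and 202 against 24.9 CPM. Postn, the matrix protein periostin, was at 286 against 47.3 CPM and 359 against 0 CPM. Col1a1 was at 1932 against 180 CPM and 1088 against 176 CPM, but 3 control cells held 81.3% of its control counts. Specc1, at 130 against 16.1 CPM and 96.1 against 12.4 CPM, completed the 10 genes.

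On the smooth muscle side, several genes belong to the contractile apparatus and its calcium store. Pln, phospholamban, which restrains the calcium pump of the sarcoplasmic reticulum, stood at 181 CPM in smooth muscle-leaning and 13.8 CPM in pericyte-leaning control cells, and at 401 and 52.7 CPM in Stat3KO. Sorbs2, an adaptor at actin attachment sites, stood at 836 and 63.7 CPM, and at 338 and 34.9 CPM. Itga8, an integrin chain of contractile cells, stood at 197 and 14.99 CPM, and at 226 and 26.1 CPM. Epha4, an ephrin receptor, stood at 131 and 7.52 CPM, and at 163 and 8.75 CPM. Pde4b, which breaks down cyclic AMP, stood at 209 and 7.35 CPM, and at 200 and 43.4 CPM. Fbxl22, Rassf3, Mical3 and Ccdc107 were each between 111 and 288 CPM in smooth muscle-leaning cells and between 8.49 and 45.1 CPM in pericyte-leaning cells.

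The smooth muscle list moved as a group. Of its 18 genes that could be compared, 10 were at least 2-fold higher in smooth muscle-leaning cells in both libraries, against 4.91% of all genes, and none was 2-fold higher in pericyte-leaning cells. The median log2 ratio of pericyte-leaning over smooth muscle-leaning cells was -1.32 in control and -1.31 in Stat3KO, where the medians over all genes were 0.06 and 0.11. Tagln was at 5857 against 2200 CPM in control and at 6271 against 2512 CPM in Stat3KO. Tpm2, a tropomyosin, was at 3337 against 1003 CPM and 4954 against 1554 CPM. Cnn1, the late smooth muscle marker calponin, was at 394 against 50.8 CPM and 125 against 35.1 CPM, though above 0 in only 11 and 7 mural cells. Acta2 is outside both pairs but helped choose the cells, so its values are a description only. It was at 7422 against 2867 CPM and 8643 against 3047 CPM. Cald1, caldesmon, did not split, with log2 ratios of -0.23 and 0.11.

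The pericyte list was less uniform. Of 12 genes, 4 were at least 2-fold higher in pericyte-leaning cells in both libraries, against 5.43% of all genes: Kcnj8, Abcc9, Steap4 and Ndufa4l2, a respiratory chain paralog. The medians were 0.48 in control and 1.25 in Stat3KO. Several well-known pericyte genes were shared by both leanings. Notch3 had log2 ratios of -0.05 and -0.23, and the guanylate cyclase subunits Gucy1a1 (0.02 and 0.24) and Gucy1b1 (0.28 and 0.09) were alike on both sides. Pdgfrb, the receptor through which mural cells are recruited to vessels, was at 553 against 327 CPM in control and 553 against 288 CPM in Stat3KO, log2 ratios of 0.76 and 0.94. Cspg4, the NG2 proteoglycan, had ratios of 0.68 and 0.75. Rgs4, although on the pericyte list, was lower in pericyte-leaning cells, at 202 against 378 CPM and 342 against 426 CPM. Another 2 genes passed the 2-fold mark in Stat3KO alone: Cox4i2 (184 against 179 CPM in control, 432 against 74.1 CPM in Stat3KO) and the adhesion molecule Mcam (135 against 165 CPM, and 219 against 25.01 CPM). Whether the libraries differ in this was not tested.

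**Figure D3:**
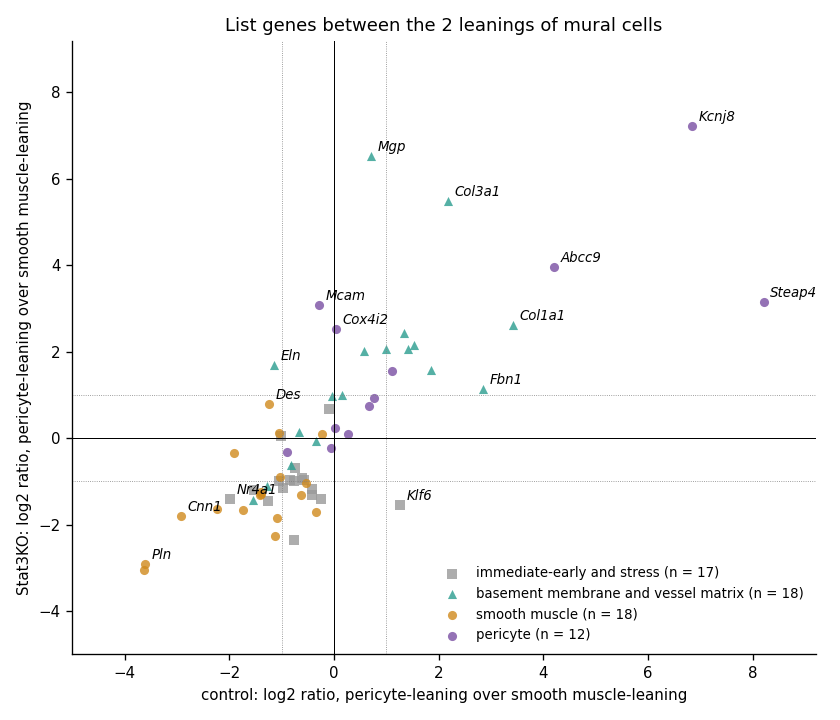
Log2 ratio of pericyte-leaning over smooth muscle-leaning cells in control (horizontal) and Stat3KO (vertical) for genes of 4 lists, 1 point a gene, with dotted lines at 2-fold. Smooth muscle genes gather at lower left around medians of -1.32 and -1.31, Kcnj8 and Abcc9 lie at upper right, and Klf6 and Eln lie on opposite sides in the 2 libraries.

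Genes of basement membrane and vessel matrix leaned to the pericyte side. Of 18 genes, 7 were at least 2-fold higher in pericyte-leaning cells in both libraries and 2, Sparcl1 and Lamb2, in smooth muscle-leaning cells. Over all genes the shares were 5.43% and 4.91%. The list's median log2 ratios were 0.64 and 1.64. Col4a1 stood at 4330 against 1716 CPM in control and 3955 against 726 CPM in Stat3KO. Nid1, the linker nidogen, stood at 181 against 61.6 CPM and 228 against 50.02 CPM. Sparcl1, a secreted relative of SPARC, went the other way, at 1243 against 3622 CPM and 1449 against 3900 CPM. Lamb2, a laminin chain, stood at 201 against 487 CPM and 211 against 451 CPM.

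Mgp, matrix Gla protein, an inhibitor of calcification, showed a sharp division between single cells. Its median was 4026 CPM in the 41 control pericyte-leaning cells, from 0 to 15454, and 331 CPM in the 23 smooth muscle-leaning cells, from 0 to 17457. In Stat3KO the medians were 8640 CPM, from 0 to 34623, and 0 CPM, from 0 to 966. It was above 0 in 40 of 41 and 21 of 22 pericyte-leaning cells and in 15 of 23 and 6 of 21 smooth muscle-leaning cells. The groups overlap in both libraries. The summed control ratio was only 0.71 on the log2 scale, against 6.53 in Stat3KO. The highest of all control mural cells was 1 smooth muscle-leaning cell that also met another rule. Its chondrocyte list summed to 35548 CPM and its fibroblast list to 6317 CPM.

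**Figure D4:**
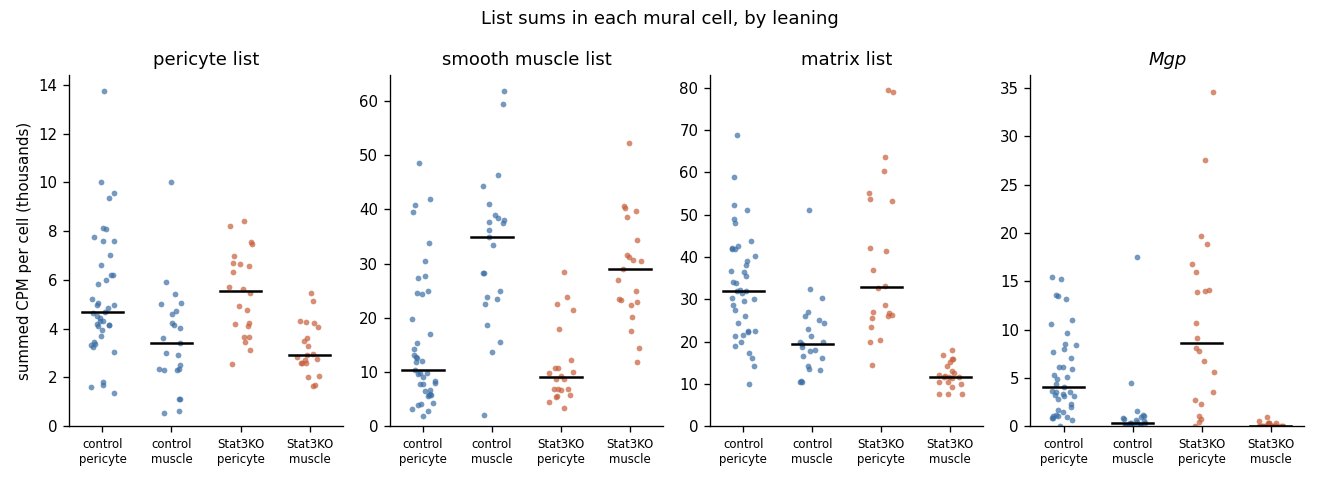
Summed CPM (divided by 1000) of the pericyte list, smooth muscle list and matrix list, and CPM of Mgp, in each mural cell by library and leaning; points are cells and black lines medians. Smooth muscle list medians are 10390 and 8994 CPM in pericyte-leaning cells and 34975 and 29045 CPM in smooth muscle-leaning cells of control and Stat3KO, and the cells of the 2 leanings overlap in every panel.

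Across single mural cells, the pericyte pair's share of the 4 genes went with the smooth muscle list at a Spearman rho of -0.70 over 64 control cells and -0.80 over 43 Stat3KO cells. With the pericyte list rho was 0.43 and 0.62, and with the matrix list 0.61 and 0.84. Cells of 1 library share its preparation and a CPM is closed to a fixed sum, so these values are descriptions. With depth the share had a rho of 0.09 and 0.18.

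In the list of channels and calcium handling, beside Kcnj8 and Abcc9, Atp2a2, the calcium pump of the sarcoplasmic reticulum, was higher in smooth muscle-leaning cells, at 894 against 438 CPM and 902 against 421 CPM. Of 7 genes of this list that could be compared, 2 were at least 2-fold higher on each side in both libraries. Over all genes the shares were 5.43% on the pericyte side and 4.91% on the smooth muscle side. The immediate-early and stress list had no gene 2-fold higher in pericyte-leaning cells in both libraries and 3 of 17 (Egr1, Nr4a1 and Dnajb1) 2-fold higher in smooth muscle-leaning cells, with medians of -0.77 and -1.14. These genes are known to be induced by tissue dissociation. The median share of mitochondrial counts was higher in smooth muscle-leaning cells of Stat3KO, at 5.95% against 3.77%. In control it was nearly alike, at 4.13% against 4.0045%. Above 5% lay 5 of 23 smooth muscle-leaning and 9 of 41 pericyte-leaning cells in control, and 13 of 21 and 9 of 22 in Stat3KO. The part of this in the list's values was not tested. Tgfb1, the growth factor, was 2-fold higher on the pericyte side (170 against 79.5 CPM, and 130 against 61.6 CPM), and Jag1, a Notch ligand, on the smooth muscle side (279 against 121 CPM, and 150 against 70.2 CPM). Serpine2, an inhibitor of thrombin, was higher on the pericyte side, at 1290 against 357 CPM in control and 1485 against 413 CPM in Stat3KO.

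The mural cells of the 2 genotypes were then compared. Across 1638 genes above 0 in at least 10% of mural cells of either library and at a mean of at least 100 CPM, 135 (8.24%) were at least 2-fold higher in Stat3KO and 129 (7.88%) at least 2-fold lower. The median log2 ratio was -0.01. Without the 9 control and 2 Stat3KO cells that met another rule, 138 and 112 genes passed, and 98 and 69 of them were those of the full set. With 1 pool of animals for each genotype, genotype, pool and library cannot be told apart.

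Genes of the pericyte and smooth muscle lists were compared first. Of 12 pericyte genes none was 2-fold apart, against 8.24% of all genes higher and 7.88% lower, and their median log2 ratio of Stat3KO over control was 0.16. Abcc9 was the lowest, at 129 against 223 CPM, and Art3 the highest, at 145 against 77.2 CPM. Of 17 smooth muscle genes 3 were at least 2-fold higher and 2 at least 2-fold lower, from -1.62 to 1.79 on the log2 scale, with a median of -0.12. Des, the intermediate filament desmin, stood at 413 CPM in Stat3KO and 119 CPM in control. Mustn1, a small nuclear protein of muscle, stood at 1265 and 480 CPM. Pln stood at 196 and 66.4 CPM, but 3 control cells held 62.5% of its control counts. Smtn, smoothelin, a marker of contractile smooth muscle, stood at 81.9 and 255 CPM, and Cnn1 at 72.3 and 159 CPM. Mustn1 was also higher in the Stat3KO library's other cells, at 82.5 against 14.96 CPM. The non-mural cells include 1483 erythroid cells in control and 12 in Stat3KO. The part of this in ratios of non-mural cells, here and below, was not tested.

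The 10 genes with the lowest ratios were cartilage and fibrous matrix genes: Col9a2, Col9a3, Fmod, Col11a1, Dcn, Cnmd, Col2a1, Hapln1, Col9a1 and Chad. Col2a1, the main cartilage collagen, stood at 4546 CPM in control and 85.0 CPM in Stat3KO mural cells, and Col9a2 at 378 and 0 CPM. The 3 leading control cells held between 86.1% and 98.4% of each gene's control counts. In non-mural cells Col2a1 was not lower in Stat3KO, at 14056 against 10097 CPM. Within chondrocytes alone, the 9 chondrocyte genes summed to 52209 CPM in Stat3KO and 69433 CPM in control. The 8 genes of the chondrocyte list that were compared had a median log2 ratio of -5.59, and -1.84 without the cells that met another rule. Col2a1 was then at 282 CPM in control and 91.1 CPM in Stat3KO mural cells. Globin RNA moved the same way, Hbb-bs standing at 340 CPM in control and 8.51 CPM in Stat3KO mural cells, with 3 control cells holding 87.6%. The part of cells or RNA of other types in these values was not tested.

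The 10 genes with the highest ratios were Cebpb, Nr4a3, S100a4, Tppp3, Nr4a2, Fst, Hist1h2ae, Xirp1, Gstp1 and Maff. Cebpb, a transcription factor of inflammatory and acute-phase responses, stood at 413 CPM in Stat3KO mural cells, above 0 in 25 of 43, and at 20.03 CPM in control, above 0 in 4 of 64. S100a4, a calcium-binding protein, stood at 2537 and 345 CPM, with 3 Stat3KO cells holding 55.4% of its counts. Nr4a2, an orphan nuclear receptor of the early response, stood at 645 and 111 CPM. Tppp3, a tubulin-binding protein, stood at 304 and 49.5 CPM. Hist1h2ae was above 0 in 16 control cells, at 77.9 CPM, and in only 3 Stat3KO cells, at 423 CPM, and without the 3 cells with most of its counts in each library its log2 ratio was -5.22. In non-mural cells the ratios of Cebpb (3.39), Maff (2.49), Fst (2.75), S100a4 (1.86), Nr4a3 (1.62), Nr4a2 (1.44) and Xirp1 (1.26) were also above 2-fold. Those of Tppp3 (0.76) and Gstp1 (0.56) were smaller there than the 2.59 and 2.32 of mural cells.

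When the cells meeting another rule were left out, 10 other genes had the lowest ratios, a set chosen after the values were seen. They included Prg4, lubricin, known from the synovial lining and articular cartilage (37.5 CPM in Stat3KO, 186 CPM in control), Igfbp5, an IGF-binding protein (297 CPM in Stat3KO, 1317 CPM in control), Sort1, the sorting receptor sortilin (105 and 416 CPM), Myom1, a myomesin (82.9 and 321 CPM), and Sec61a1, a channel of the endoplasmic reticulum (156 and 848 CPM). Sec61a1 was also lower in non-mural Stat3KO cells, at a log2 ratio of -1.14, while Igfbp5 (-0.08) and Sort1 (0.48) were not.

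**Figure D5:**
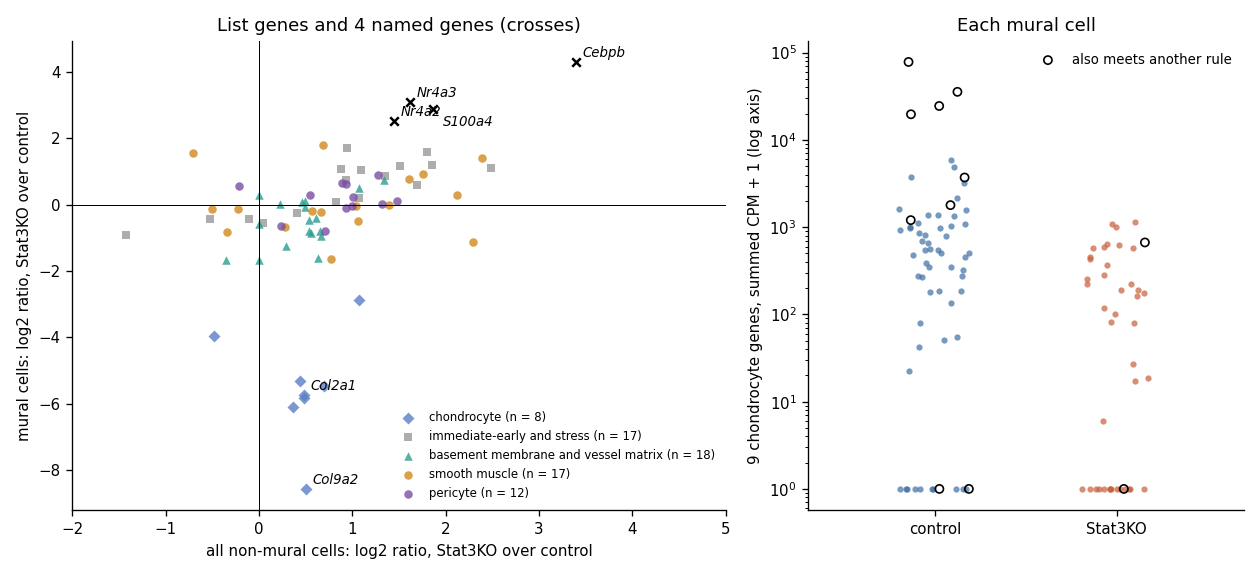
Left, log2 ratio of Stat3KO over control in all non-mural cells (horizontal) and in mural cells (vertical) for genes of 5 lists and 4 further genes (crosses). Right, summed CPM + 1 of 9 chondrocyte genes (log axis) in each mural cell, open circles marking cells that also met another rule. The 8 chondrocyte genes compared lie at -2.88 or lower in mural cells, and a few control cells with open circles hold most of the cartilage RNA.

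In PDGF, Notch and angiopoietin signalling, 1 of 8 genes was 2-fold higher and 1 lower, against 8.24% and 7.88% of all genes. Both are Notch targets: Hes1 stood at 816 CPM in Stat3KO and 241 CPM in control, and Heyl at 61.7 and 156 CPM. Hes1 was also higher in non-mural cells, at a log2 ratio of 1.82. Of 18 matrix genes, 4 were at least 2-fold lower (Fbn1, Col15a1, Col1a2 and Eln) and none higher, against 7.88% of all genes lower and 8.24% higher, with a median of -0.53. Elastin, Eln, stood at 320 CPM in Stat3KO and 766 CPM in control, and fibrillin, Fbn1, at 149 and 477 CPM. The 3 leading control cells held 88.1% of Col15a1 and 77.2% of Col1a2 counts. Without the cells that met another rule, the ratios of Col15a1 and Col1a2 were 1.17 and -0.05, and those of Eln and Fbn1 -1.46 and -1.55.

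Of 17 immediate-early and stress genes 7 were at least 2-fold higher in Stat3KO mural cells, against 8.24% of all genes, and none lower, with a median of 0.74. Dusp1, a phosphatase that ends MAP kinase signals, stood at 422 and 129 CPM, Nr4a1 at 588 and 196 CPM, and Junb at 1356 and 591 CPM. Stat3KO mural cells also had more mitochondrial counts, a median of 5.09% against 4.04%, and its part in these values was not tested. All 7 had higher levels in the pooled other Stat3KO cells too, Junb at 684 against 189 CPM. The control pool included 1483 erythroid cells, where the list summed to 1963 CPM, against 12 such cells in Stat3KO. Within fibroblasts, marrow stromal cells and chondrocytes the list sum was not higher in Stat3KO. It was 14154 against 14760 CPM, 15640 against 16150 CPM and 13231 against 15295 CPM. In mural cells the list sum was 15436 CPM in Stat3KO and 13149 CPM in control. Within pericyte-leaning cells alone the list's median log2 ratio was 0.00, and its sum was 10240 CPM in Stat3KO and 10644 CPM in control. In smooth muscle-leaning cells the sum was 22851 CPM in Stat3KO and 18592.5 CPM in control. Among genes of gp130 and STAT signalling 3 passed the filter on low values. Il6st, the gp130 receptor chain, stood at 87.6 CPM in Stat3KO and 198 CPM in control, with 3 control cells holding 67.1% of its counts and a log2 ratio of 0.03 without the cells that met another rule. Socs3, a target of STAT3 below that filter, stood at 119 and 74.7 CPM.

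Receptors for vasoactive signals were mostly too low to compare, and 1 of 16, the endothelin receptor Ednra (165 and 290 CPM), passed the filter. P2rx1, the ATP-gated channel of arterial smooth muscle, lies below the filter on mean level but differed in detection. It was above 0 in 15 of 64 control mural cells (23.4%, 13.8 to 35.7%), 9 of them smooth muscle-leaning, at 145 CPM. In Stat3KO it was at 0 in all 43 mural cells, 3933 UMIs deep at the median, where a limit of 3 counts allows a share of cells with a UMI of up to 6.98%. P2rx1 was singled out from the 16 receptors by these values, so they are a description. With 1 library for each genotype the difference was not tested. In non-mural cells it was nearly absent from both libraries, at 0.042 CPM in control and 0.14 CPM in Stat3KO.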

How the data were processed

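Cells of 2 libraries (10x Genomics 3′ v3.1) were analysed. Per the labels and methods, reads were aligned to mm10 with STAR 2.7.3a in Partek Flow and ambient RNA was corrected with SoupX. For each cell the authors deposited 32245 gene columns on the log2(CPM + 1) scale; the authors also deposited, per cell, an estimated count total, the percent of mitochondrial counts and a score giving the number of genes detected. The stated limit of 5% mitochondrial counts was not met by all deposited cells. Estimated UMIs were recovered as CPM times the deposited total, whole within 0.1 for 74.9% of control and 97.3% of Stat3KO values. They were summed over cells, rescaled to CPM and compared as log2 ratios with 1 CPM added; no count model or test was run. Cells of 1 library are not replicates. Cells meeting 2 class rules belonged to no compared class but stayed mural. Fibroblasts had at least 3 of Pi16, Dpp4, Clec3b, Sema3c, Dpt and Ly6a above 0, marrow stromal cells Cxcl12 and at least 2 of Adipoq, Lepr, Kitl and Hp, erythroid cells at least 3 of 6 erythroid genes, and chondrocytes Sox9 and Col2a1.

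Named genes were Stat3, the rule markers, genes of 24 lists, the 20 genes with the highest smaller mural ratio, and the 10 highest and lowest of the other comparisons. Of these, 1 gene is not reported here. Members and lists were chosen with earlier results of these data known. The planned division was by pure pairs; the larger-pair division, adopted once the pure groups had been counted, carries the gene levels. Shares have exact Clopper-Pearson intervals. The calculation was tested on simulated data. Python 3.11.15, scipy 1.17.1 and scanpy 1.11.5 (Scrublet, expected rate 0.05) were used. Gene positions are from GENCODE for GRCm38. Alternatives covered cell filters, depth, doublets, pseudocounts, weighting, scaling and filters on low values.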

Additional observations from a re-analysis of the deposited data

Results flagged for a closer look

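Of the list genes, 2 lay at least 2-fold apart between the leanings in opposite directions in the 2 libraries. With 1 library for each genotype the difference was not tested. Eln had a log2 ratio of pericyte-leaning over smooth muscle-leaning cells of -1.15 in control (553 against 1229 CPM) and 1.69 in Stat3KO (448 against 138 CPM). It was above 0 in 29 control and 13 Stat3KO mural cells, and 3 cells held 51.1% and 69.4% of its counts. Klf6, an immediate-early transcription factor, had ratios of 1.25 in control (366 against 153 CPM) and -1.54 in Stat3KO (279 against 813 CPM).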

How the results depend on the processing

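No paired analysis was possible because each genotype has 1 library and no test was run. Of 127 recomputed shares and counts, 100 stayed within their interval or within 1.5 times, and the cause of the other changes was not tested. The control share moved to 2.35% without globin-positive cells, 1.87% outside the erythroid class and 0.857% with at least 4 markers, where the Stat3KO share was 2.16%. Genes 2-fold higher and lower in Stat3KO numbered 305 and 211 after thinning to 1000 UMIs, 263 and 315 at a mean of 50 CPM, 70 and 47 at 200 CPM, 2457 and 3634 with no filter, and 205 and 219 in smooth muscle-leaning cells alone, and 200 were lower without globin-positive cells. Among the genes at least 2-fold apart, the share higher in Stat3KO was 51.1%. Median-of-ratios scaling, a shift of 0.08 on the log2 scale, changed it to 59.7%, and having no filter changed it to 40.3%. With pure pairs, the 406 pericyte and 180 smooth muscle genes became 177 and 347 with at most 5% mitochondrial counts, 76 and 102 after thinning and 95 and 86 with the larger pair. With the larger pair, thinning left 36 and 52 genes, and 144 were higher on the pericyte side without globin-positive cells. Thinning left 75, 69 and 69 genes higher in mural cells than in all other, fibroblast and marrow stromal cells. Hist1h2ae reversed to -5.62 in smooth muscle-leaning cells and -5.22 without its 3 leading cells. Pure pairs gave no value with at least 4 markers or without globin-positive cells, since a group was empty. The libraries' depth and 107 cells limit low genes.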
